A study of Mus musculus with 4 samples.

Results

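The genes described here are 8 adipokines, which are hormones, enzymes and other proteins that fat cells secrete, and the 2 classical receptors of adiponectin. Adipoq, Retn, Lep, Cfd, Rbp4, Nampt, Apln, Hp, Adipor1 and Adipor2 were found by their symbols among the probes of the array, and none needed an older synonym. They are 10 of the 22221 named genes, measured by 11 of 31220 named probes. RNA came from cardiac mesenchymal progenitors (CMPs), cultured Sca-1+ cells from the hearts of adult C57BL/6 mice. One array held untreated CMPs at day 0. The other arrays held OSKM-CMPs, which are CMPs given Oct4, Sox2, Klf4 and c-Myc by Sendai virus, at days 4, 6 and 8. With 4 arrays for 4 conditions there were no replicates, so no test between conditions was possible and no p-value is given. The control is a single day 0 sample, so the effects of the factors, the virus and the days in culture cannot be told apart. The labels give 1 growth medium for all samples, while the study's methods move transduced cells to a reprogramming medium, so whether the medium differed as well is not settled here. Nothing in the sources used here says how many hearts or cultures each sample pooled.

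Adipokines let adipose tissue act on distant organs. Adiponectin (Adipoq) improves insulin sensitivity in liver and muscle through AdipoR1 and AdipoR2, leptin (Lep) reports fat stores to the brain, and adipsin (Cfd) is the protease complement factor D. Most of them appear late, when a precursor fills with lipid, and mature fat cells are their main source in the body for adiponectin, leptin and adipsin. Others are made widely: nicotinamide phosphoribosyltransferase (Nampt) is a housekeeping enzyme of NAD synthesis as well as the secreted protein visfatin, and apelin (Apln) and the adiponectin receptors are found in many cell types, the heart included.

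The signal given for a probe is the background-subtracted Cy3 intensity in arbitrary units. Differences are on the log2 scale after subtracting the 75th percentile of each array, a signal of 388 to 411, so a difference can depart slightly from the ratio of the printed signals. An error (±) is 1 SD from the error model of the scanning software and covers neither cultures nor RNA preparation. A probe that was not well above background on an array has only an upper bound there, and the difference is then written as at least so many fold. A gene was counted as higher or lower where the difference reached 2-fold, over genes well above background on at least 1 of the arrays compared. On each array 56.6% to 59.6% of the 55681 probes passed this limit, no spot was saturated, and all arrays came from 1 slide and 1 scan. All 12 markers of mesenchymal progenitors, such as Ly6a, Pdgfra and Col1a1, were well above background on every array, with summed levels of 1614 to 1977 times the 75th percentile. Single markers were not steady. At day 8, 2 of the 12 were at least 2-fold higher than the control (Ly6a and Nt5e) and 3 were lower (Thy1, Eng and Itgb1). Of all genes 12.1% were higher and 10.6% lower.

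Adipoq, Cfd, Rbp4, Retn and Hp rose by large amounts, Nampt by about 3-fold, and Apln ended within 2-fold of the control. The receptors also stayed within 2-fold, although Adipor1 passed that limit on the low side at days 6 and 8 when arrays were scaled by their median. For Lep only a lower limit can be given, at least 1.20-fold higher at day 8, so its full difference is not known. At day 4, 5 of the 9 members that could be compared were at least 2-fold higher than in the control, namely Adipoq, Cfd, Rbp4, Nampt and Hp, where 10.0% of 16213 genes were. With arrays scaled by their median Nampt, at 0.93, was no longer among them. At day 6 Retn joined them, giving 6 of 9, where 11.1% of all genes were higher. At day 8 the count was 6 of 10, where 12.1% were higher. No member was 2-fold lower on any day, where 8.34%, 10.1% and 10.6% of all genes were. The median difference of the members, with each bound at its lower limit, was 1.07, 5.87 and 4.40 on the 3 days, beside -0.02, -0.04 and -0.04 over all genes. Lep could not be compared at days 4 and 6, since its probe was not well above background on those arrays or in the control, and its entry lowers the day 8 median. These comparisons share the control array. Between the OSKM-CMP arrays of days 4 and 8, 6 of 10 members were at least 2-fold higher (Adipoq, Retn, Cfd, Rbp4, Apln and Hp), where 3.61% of 16207 genes were, and none was lower, where 3.20% were.

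**Figure D1:**
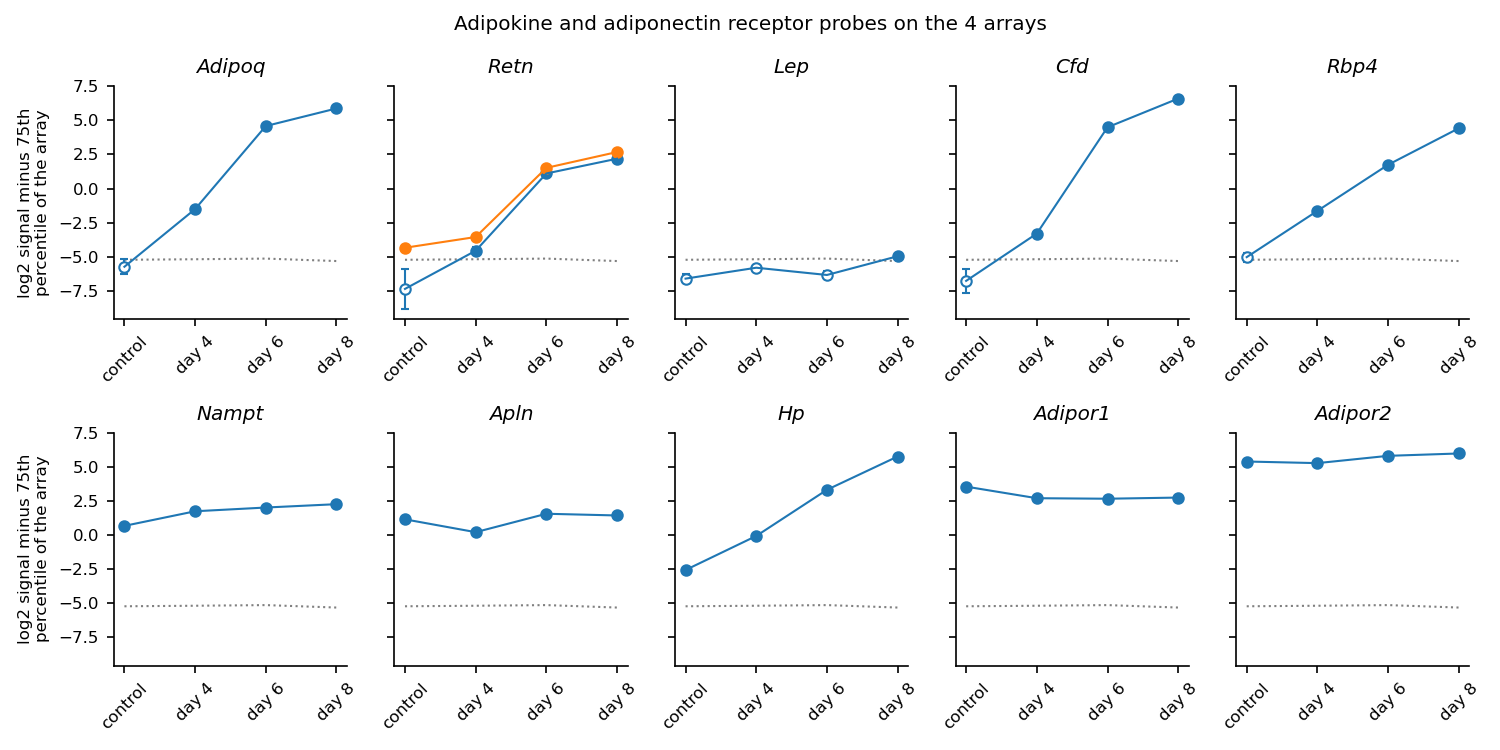
Log2 signal of each of the 11 probes minus the 75th percentile of its array (vertical axis) on the 4 arrays (horizontal axis), with error bars of 1 SD from the scanning software. Open circles mark values not well above background, the dotted line is the lowest signal well above background on each array, and the 2 probes of Retn have separate colours. The Adipoq, Cfd and Retn curves are steepest between days 4 and 6. They go up at every step, as do those of Rbp4, Hp and Nampt. Adipor1 and Adipor2 stay within 1 log2 unit of the control on this scale.

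Promoter sequence is shown for members with changes of different sizes, so that the letters just before their starts can be read side by side. Lep is among them although it was not counted as higher. The RefSeq promoter table on GRCm38.p6 matched 9 of the 10 genes, and held 2 starts each for Rbp4 and Adipor1. Hp is named only. Capitals mark matches to TTNNGNAA, a short form of the site of C/EBP factors, to AGGTCA, the half-site of nuclear receptors such as PPARγ, or to GGGNGTGG, a form of the Klf4 site, on either strand, so that a match on the opposite strand appears as its complement. Each line gives the 250 bases before the start in the direction of the gene. They lie on the forward strand at chr16:23146286-23146535, chr10:79890603-79890852, chr8:3655520-3655769, chr6:29059971-29060220 and chr12:32820085-32820334 in that order.
Adipoq: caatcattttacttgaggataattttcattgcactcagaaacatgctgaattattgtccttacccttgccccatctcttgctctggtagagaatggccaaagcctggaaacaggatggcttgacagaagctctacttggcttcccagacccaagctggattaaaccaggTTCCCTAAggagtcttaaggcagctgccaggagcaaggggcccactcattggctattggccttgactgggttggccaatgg
Cfd: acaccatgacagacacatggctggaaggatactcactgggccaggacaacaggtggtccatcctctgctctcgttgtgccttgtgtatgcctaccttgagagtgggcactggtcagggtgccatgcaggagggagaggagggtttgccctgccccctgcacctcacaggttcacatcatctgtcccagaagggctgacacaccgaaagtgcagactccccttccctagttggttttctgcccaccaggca
Retn: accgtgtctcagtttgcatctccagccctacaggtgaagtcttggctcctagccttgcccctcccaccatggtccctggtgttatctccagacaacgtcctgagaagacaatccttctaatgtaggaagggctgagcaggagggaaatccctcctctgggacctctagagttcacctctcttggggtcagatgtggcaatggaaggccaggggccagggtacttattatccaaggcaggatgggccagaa
Lep: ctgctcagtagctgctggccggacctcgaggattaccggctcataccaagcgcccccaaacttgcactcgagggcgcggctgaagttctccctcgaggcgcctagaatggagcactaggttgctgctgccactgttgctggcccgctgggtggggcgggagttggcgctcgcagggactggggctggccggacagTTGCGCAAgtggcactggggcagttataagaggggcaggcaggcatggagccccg
Nampt: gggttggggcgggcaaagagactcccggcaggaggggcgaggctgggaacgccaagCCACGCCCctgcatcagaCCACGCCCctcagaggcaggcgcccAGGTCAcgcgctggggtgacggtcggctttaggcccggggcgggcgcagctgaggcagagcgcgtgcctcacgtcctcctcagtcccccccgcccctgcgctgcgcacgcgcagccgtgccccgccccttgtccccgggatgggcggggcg

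Within the 250 bases before and the 50 after each start, TTNNGNAA was matched in 4 of the 9 genes, Adipoq, Lep, Rbp4 and Adipor2, where 40.7% of the 32851 promoters in the table hold it. In Lep the match was TTGCGCAA, from -55 to -48 relative to the start. In Adipoq it lay from -81 to -74 on the opposite strand. AGGTCA was matched once, in Nampt from -151 to -146, where 16.3% of promoters hold it. GGGNGTGG was matched in Nampt, Adipor1 and Adipor2, where 17.6% of promoters hold it. DR1, which is AGGTCA, any base and AGGTCA again in the same direction, and contains the half-site, was matched in 0 of 9, where 0.0396% of promoters hold it. The E-box CACGTG was likewise matched in 0 of 9, where 7.15% hold it. A gene was counted if any of its starts matched, while the shares are per promoter. Rbp4 and Adipor1, with 2 starts each, therefore had more chances of a match. Cfd and Retn, both with large rises, had no match to any of these letters in this window.

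Adiponectin went from a signal near background to one of the strongest rises on the array. The Adipoq probe, at chromosome 16 from 23157576 to 23157635 on mm9, gave a signal of 7.35 in untreated CMPs, which was not well above background, and 137, 9680 and 23930 at days 4, 6 and 8. The value was higher at each later time. Against the bound in the control, Adipoq was at least 13.1-fold higher by day 4, at least 886-fold by day 6 and at least 2165-fold by day 8. The step from day 4 to day 6 was 6.08 ± 0.21 on the log2 scale and the step from day 6 to day 8 was 1.29 ± 0.20. From day 4 to day 8 the difference was 7.37 ± 0.21, the second highest among 14719 genes well above background on both arrays. In bulk RNA of this kind, more cells that express a gene and more RNA per cell cannot be told apart.

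Between days 4 and 8 adipsin rose further than adiponectin, while their rises from the control are lower limits and cannot be ranked. Cfd encodes complement factor D, which cuts factor B and so starts the alternative complement pathway. Its probe (chromosome 10, 79355302 to 79355361) gave signals of 3.59, 39.5, 9095 and 39475 in the control and at days 4, 6 and 8, and the control value was not well above background. The day 6 and day 8 values stood far above the earlier ones. Cfd was at least 3.78-fold higher than the control on day 4, then at least 832-fold and at least 3572-fold higher on days 6 and 8. With normexp background correction the day 4 difference was 0.63, under 2-fold. That setting adds 50 to every signal, which shrinks differences between dim signals, so it cannot decide this call. Its step from day 4 to day 6, 7.78 ± 0.22, was the highest of 14578 genes well above background on both arrays. From day 6 to day 8 it went up by a further 2.10 ± 0.20, and its difference between days 4 and 8, 9.88 ± 0.22, was the highest of 14719 genes.

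Resistin, a small cysteine-rich hormone that mouse fat cells secrete and that opposes insulin, was measured by 2 probes. The first (chromosome 8, 3657312 to 3657371) gave 2.39 in the control, which was not well above background, and then 16.5, 872 and 1866. The second (chromosome 8, 3659757 to 3659816) gave 19.3, 33.2, 1159 and 2620 and was well above background on every array. Both probes put days 6 and 8 far above the control and day 4. By the second probe Retn differed from the control by 0.79 ± 0.30, 5.85 ± 0.28 and 7.01 ± 0.28 on the 3 days in turn, and by the first it was at least 169-fold higher at day 8. The difference between days 4 and 8, 6.48 ± 0.19 over both probes, was the fourth highest of 14719 genes. The related genes Retnla, Retnlb and Retnlg had probes too, and none of these passed background in any condition.

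Leptin stayed near the detection limit. Its probe (chromosome 6, 29023234 to 29023293) was printed in 10 spots per array, of which 8 to 10 remained after outlier spots were left out. Spot signals ran from 2.10 to 8.29 with a median of 3.52 in the control, from 4.29 to 11.4 with a median of 6.70 at day 4, and from 2.32 to 13.7 with a median of 4.39 at day 6. At day 8 they ran from 8.68 to 17.5 with a median of 14.1. None of the spots of the control, day 4 or day 6 was well above background, against 7 of 10 at day 8. In these signals the day 8 spots lay above those of the control and overlapped those of days 4 and 6. Once each signal was divided by the 75th percentile of its array, the lowest day 8 spot fell just under the highest control spot. Spots of 1 array share 1 RNA sample and are not replicates of a condition. Against the bound in the control, Lep was at least 1.20-fold higher at day 8, so it was not counted as higher.

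**Figure D2:**
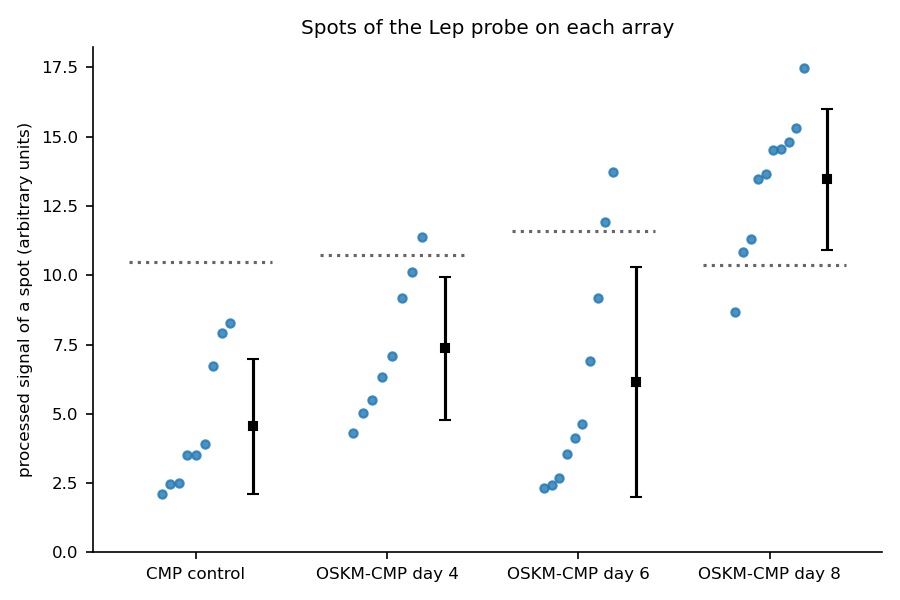
Processed signal of each spot of the Lep probe (points, arbitrary units) on the 4 arrays, with the mean and SD over spots (black squares and bars). Dotted lines are the lowest signal of a probe well above background on that array. The signals are not scaled between arrays. At day 8 the spots run from 8.68 to 17.5, and the highest control spot is at 8.29.

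Retinol-binding protein 4, the carrier that brings retinol from liver and fat into the blood, and haptoglobin, a plasma protein that binds free haemoglobin and is also made by fat cells, climbed at each step. The Rbp4 probe (chromosome 19, 38191120 to 38191179) gave 11.98 in the control, not well above background, and 125, 1357 and 8745 at days 4, 6 and 8. The Hp probe (chromosome 8, 112099045 to 112099104) gave 66.0, 370, 4031 and 22098 and was well above background on all arrays. Each step was upward in both genes. In the same order of days, Rbp4 was at least 10.5-fold, at least 109-fold and at least 692-fold higher than the control. Hp differed by 2.49 ± 0.21, then 5.87 ± 0.21, then 8.31 ± 0.21, the last being a 317-fold difference and the fifth highest of 14199 genes well above background on both arrays. From day 4 to day 6 the steps were 3.38 ± 0.21 in Rbp4 and 3.38 ± 0.20 in Hp. From day 6 to day 8 they were 2.67 ± 0.20 and 2.44 ± 0.20, ranks 4 and 6 of 14776 genes. Over the same interval Adipoq and Retn went up by 1.29 ± 0.20 and 1.12 ± 0.14.

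Nampt and Apln were expressed in untreated CMPs and moved little by comparison. Nampt (chromosome 12, 33535475 to 33535534) gave 620, 1297, 1640 and 1967 in the control and at days 4, 6 and 8, with the control lowest. Its differences from the control were 1.07 ± 0.20, 1.34 ± 0.20 and 1.59 ± 0.20 in order of time. The day 4 difference exceeded the 2-fold limit by less than its error. Steps after day 4 were 0.27 ± 0.20 and 0.25 ± 0.20. Apelin (chromosome X, 45378593 to 45378652), a peptide that acts on heart and vessels through its receptor Aplnr, gave 863, 449, 1196 and 1109. It was lowest at day 4, by -0.94 ± 0.20 relative to the control, and stood 0.41 ± 0.20 and 0.28 ± 0.20 above the control at days 6 and 8. From day 4 to day 8 it rose by 1.22 ± 0.20. Aplnr gave 12.8 in the control and 11.9 at day 4, and was not well above background at days 6 and 8. It was at least 1.30-fold lower at day 8, under the 2-fold limit, and Apln and Aplnr were the genes of the apelin system that were measured.

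The adiponectin receptors were well above background on every array, before and after transduction, and neither reached a 2-fold difference on the 75th percentile scale. AdipoR1 signals mainly through AMP-activated protein kinase, and AdipoR2 mainly through PPARα. Adipor1 (chromosome 1, 136328635 to 136328694) gave 4539 in the control and 2517, 2564 and 2750 at days 4, 6 and 8, so that the control stood above all 3 OSKM-CMP arrays. Its difference from the control was -0.85 ± 0.20, -0.89 ± 0.20 and -0.80 ± 0.20. Adipor2 (chromosome 6, 119303222 to 119303281) gave 16240, 14930, 22608 and 25768, with days 6 and 8 above day 4 and the control. Its differences on the same days were -0.12 ± 0.20, 0.42 ± 0.20 and 0.59 ± 0.20. With the array median in place of the 75th percentile, under which the median of all genes lay at -0.30 at day 8, Adipor1 differed by -1.07 and was counted as lower, and Adipor2 differed by 0.32. With quantile normalization Adipor2 differed by 0.03 at day 4 and 0.87 at day 8, and with normexp correction before it by 0.02 and 0.81, so the sign at day 4 depends on the scaling.

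**Figure D3:**
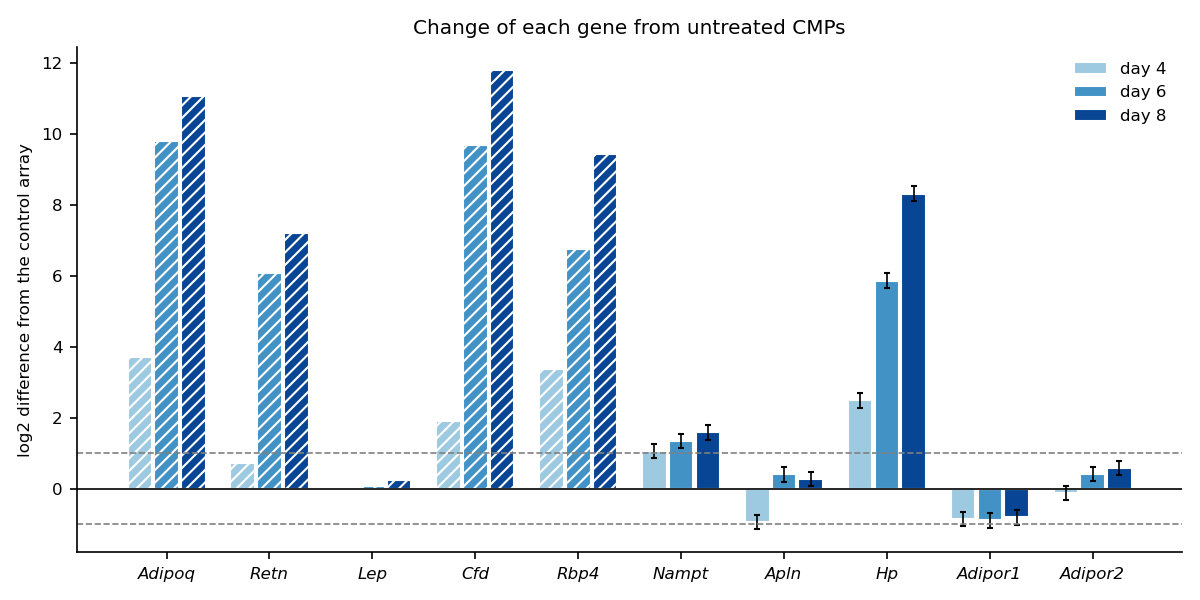
Log2 difference of each of the 10 genes from the control array (vertical axis) at days 4, 6 and 8 (light to dark bars), with error bars of 1 SD from the scanning software. Hatched bars rest wholly or partly on a bound, because a probe was not well above background, and carry no error bar. Dashed lines mark 2-fold. Cfd and Adipoq have the tallest day 8 bars, at 11.80 and 11.08 as lower limits, and both receptors stay inside the dashed lines on this scale.

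**Figure D4:**
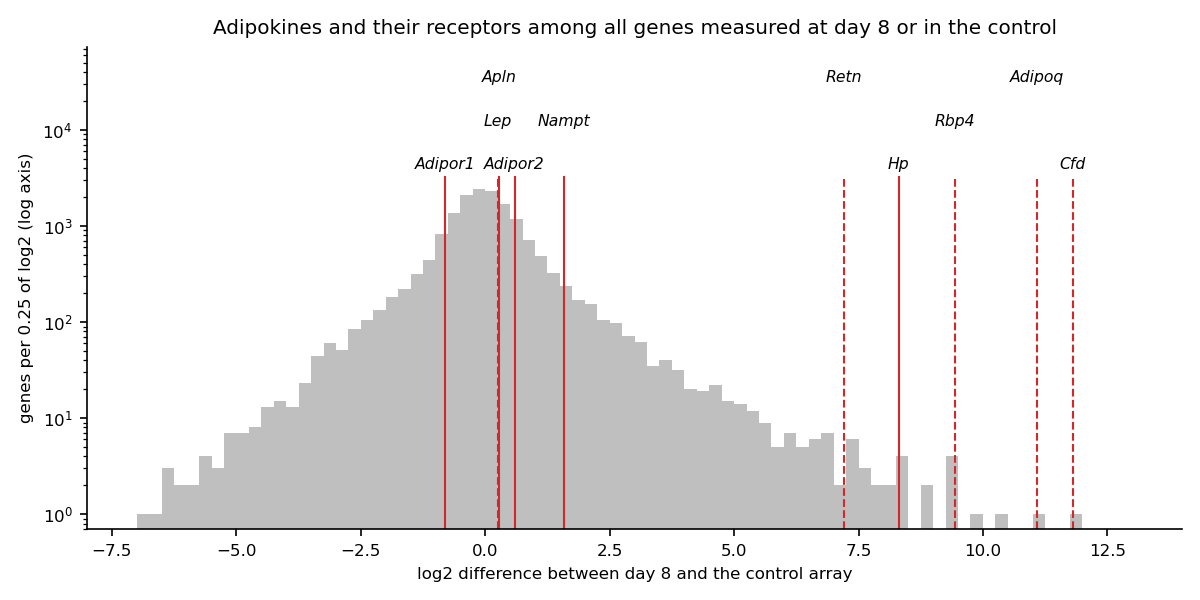
Number of genes (log axis) by log2 difference between day 8 and the control array, in bins of 0.25, over 16407 genes, with vertical lines at the 10 genes described. Dashed lines are bounds. The receptors, Apln and, as a lower limit, Lep lie in the body of the distribution. Retn, Hp, Rbp4, Adipoq and Cfd lie in its right tail, from 7.20 to 11.80.

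Gene lists were compared at day 8, when 12.1% of all genes were at least 2-fold higher and 10.6% lower, and a small list with few changed genes lies near that background. Of 6 genes for adiponectin assembly and secretion, 0 were higher or lower and the median difference was 0.14, or -0.13 with arrays scaled by their median. Erp44, a chaperone that holds adiponectin in the endoplasmic reticulum, differed by 0.01 ± 0.20, and Ero1a, the oxidase that favours its release, by -0.40 ± 0.20. Among 16 genes of adiponectin receptors and signalling, 2 were higher and 0 lower, with a median of -0.06, a share close to that of all genes. Normexp correction with quantile normalization left 1 higher. The genes were Prkaa2, the α2 catalytic subunit of AMP-activated protein kinase, with signals of 49.6, 333, 455 and 583 and a difference of 3.48 ± 0.21, and Ppargc1a, a coactivator of mitochondrial genes, which was at least 6.86-fold higher. Cdh13, or T-cadherin, which binds adiponectin at the cell surface, differed by -0.59 ± 0.21, and Appl1, the adaptor of both receptors, by 0.42 ± 0.20.

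Relatives of adiponectin and of its receptors differed in both directions, with counts that depended on the scaling. Of 8 measured C1q/TNF-related proteins, which share the globular domain of adiponectin, 2 were higher and 1 lower at day 8, with a median of -0.37, beside 12.1% and 10.6% of all genes. The counts were 0 and 3 with arrays scaled by their median, 1 and 2 with quantile normalization, and 1 and 1 on the authors' normalized values. C1qtnf5 went from a signal of 4123 in the control to 861, 796 and 792, a difference of -2.46 ± 0.20. C1qtnf1 differed by 1.14 ± 0.14 and C1qtnf4 by 1.00 ± 0.26. AdipoR1 and AdipoR2 belong to the PAQR family of membrane receptors, in which 3 of 7 other measured genes were higher and 1 lower, with a median of 0.72. The number higher was 2 under the median and quantile scalings and 0 under normexp, where the median was 0.26. The membrane progestin receptor genes Paqr5, Paqr6 and Paqr7 differed by 1.31 ± 0.37, 1.01 ± 0.12 and -1.14 ± 0.20, and Paqr9 was at least 3.31-fold higher over 2 probes that disagreed, at 0.20 and 3.25 as lower limits. The 3 probes of Paqr6 ran from 0.56 to 1.33, so not all of them reached 2-fold. Among receptors of the other adipokines, 1 of 11 was higher and 2 were lower, with a median of -0.41, again near the shares of all genes. The counts were 0 and 4 under both the median and quantile scalings and 0 and 1 under normexp. Cap1, which has been described as a receptor of resistin, differed by -1.28 ± 0.20, C3ar1 by -1.15 ± 0.31 and the chemerin-binding receptor Ccrl2 by 1.08 ± 0.22.

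The alternative complement pathway, in which adipsin acts, had 5 genes higher and 2 lower of 8 at day 8, Cfd among them, with a median of 1.23. Of all genes 12.1% were higher and 10.6% lower. The number higher was 4 and the median 0.97 with arrays scaled by their median, and the number lower was 1 under normexp. Cfb, the substrate of adipsin, gave 106, 745, 1645 and 2461 and differed by 4.46 ± 0.21. C3, the central component, differed by 4.11 ± 0.11. Cd55, a regulator of the pathway, differed by 1.19 ± 0.20. In the other direction, the inhibitor Cfi gave 411 in the control and was not well above background at any later time, being at least 41.8-fold lower at day 8, and Masp1 differed by -1.28 ± 0.23.

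Genes that handle retinol, the cargo of Rbp4, split in direction. Of 11 measured, 5 were higher and 3 lower at day 8, with a median of 0.04, beside 12.1% and 10.6% of all genes. The number higher was 3 under the median, quantile and normexp settings, and the median was -0.22 with the array median. Rbp7, a cellular retinol-binding protein, was at least 21.9-fold higher, and Crabp2, which carries retinoic acid to its receptor, differed by 3.44 ± 0.20. Dhrs3 and Rdh10, which interconvert retinol and retinal, differed by 1.63 ± 0.20 and 1.06 ± 0.21, and Rbp2 was at least 2.08-fold higher. The lower genes were the 3 retinal dehydrogenases that make retinoic acid: Aldh1a1 differed by -2.70 ± 0.20, Aldh1a2 by -2.71 ± 0.20 and Aldh1a3 by -4.59 ± 0.21. Aldh1a1 gave a signal of 51469 in the control and 6163 at day 4.

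In NAD synthesis, where Nampt makes nicotinamide mononucleotide, 3 of 10 measured genes were higher and 0 lower at day 8, with a median of 0.10, beside 12.1% and 10.6% of all genes. The number higher was 1 with the array median, under which the list median was -0.16, 1 under normexp and 2 with quantile normalization. Besides Nampt these were Nmnat3, at least 2.06-fold higher over its 2 probes, and Nadk2, 1.02 ± 0.20, both at the 2-fold limit. The 2 probes of Nmnat3 differed by 0.74 and 1.34, in part as lower limits. Naprt, which feeds the same pathway from nicotinic acid, gave 2694, 4833, 3085 and 2510 and differed by -0.18 ± 0.20 at day 8. In haptoglobin and haem handling, 2 of 7 were higher and 0 lower, with a median of 0.14, or -0.12 with the array median. Hpx, or hemopexin, which binds free haem as haptoglobin binds haemoglobin, gave 38.4, 50.9, 155 and 539 and differed by 3.73 ± 0.22. Hmox1, the haem-degrading enzyme, differed by 0.14 ± 0.14, and Cd163, the receptor of the haptoglobin-haemoglobin complex, did not pass background in any condition.

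Among other secreted products of fat, 13 of 25 measured genes were higher and 4 lower at day 8, with a median of 1.18. The shares of all genes were 12.1% and 10.6%. The number higher was 9 under normexp and 8 where probes had to be above background on every array. The acute phase proteins Saa3 and Orm1 were at least 159-fold and at least 26.7-fold higher, and the times differed: Saa3 gave 527 at day 4, while Orm1 was not well above background until day 6 and gave 295 at day 8. Lpl, the lipase that releases fatty acids from circulating triglyceride, gave mean signals over its 2 probes of 1502, 510, 10274 and 21566 and differed by 3.80 ± 0.14. Rarres2, which encodes chemerin, gave 625, 1050, 3006 and 6402 and differed by 3.28 ± 0.20. Lower genes included Ccn5 at -6.00 ± 0.20, Il6 at -2.55 ± 0.14 and Fst at -1.66 ± 0.20. Il6, a cytokine that fat also secretes, gave 1552 in the control and 280 at day 8.

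**Figure D5:**
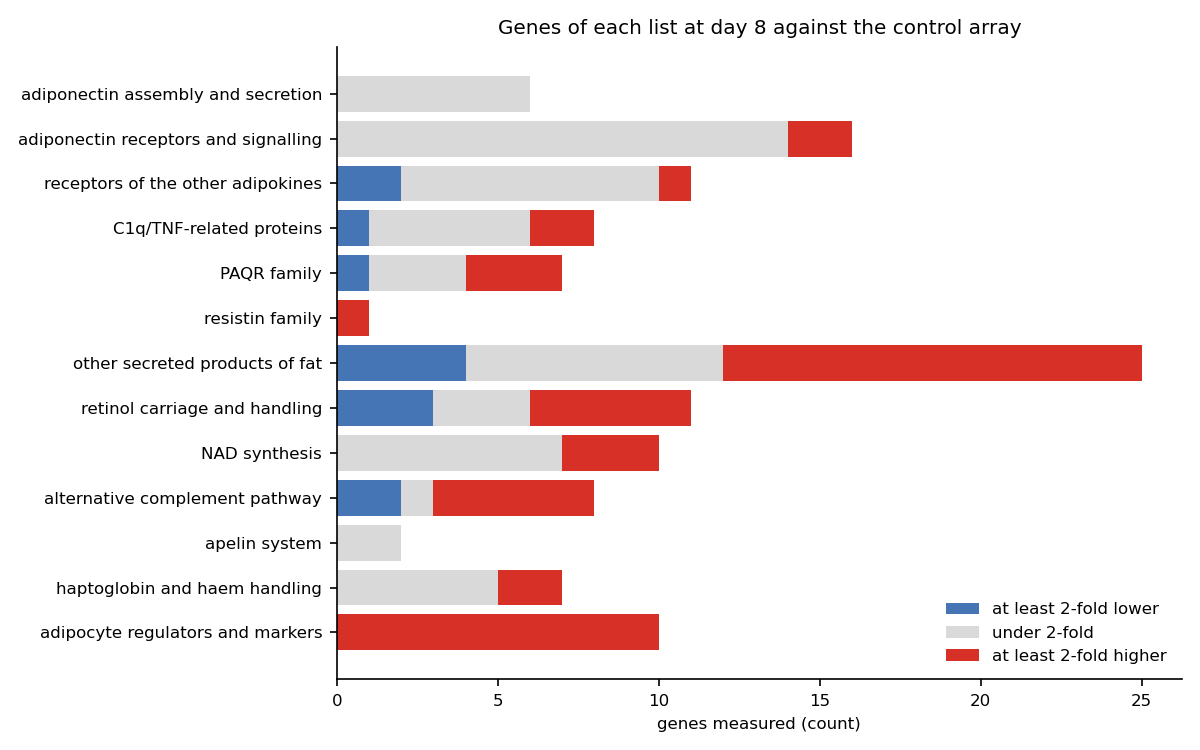
Number of measured genes (horizontal axis) in each gene list that were at least 2-fold lower (blue), under 2-fold different (grey) or at least 2-fold higher (red) at day 8 than in the control. Lists that hold members include them. Adiponectin assembly is all grey with 6 genes, other secreted products have 13 of 25 red, and adipocyte regulators and markers are all red with 10.

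The adipocyte markers set beside the adipokines had 5 of 10 genes higher and 1 lower at day 4, where 10.0% and 8.34% of all genes were. At days 6 and 8, 10 of 10 were higher, where 11.1% and 12.1% of all genes were, with a day 8 median of 4.81. Pparg, the regulator of fat cell differentiation, gave 770 in the control and already 9599 at day 4, while the lipid droplet coat gene Plin1 gave 60.6 at day 4 and 4583 at day 6. At day 8 Plin1 was at least 645-fold and Cidec, another droplet protein, at least 467-fold higher, and Dgat2, the last enzyme of triglyceride synthesis, differed by 6.65 ± 0.20. The 2 probes of Adig differed by 4.97 and, as a lower limit, 7.32. Those of Cidec differed by 7.27 and 10.47, both as lower limits.

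Likeness to a member was measured as the root mean square distance between centred log2 values over the arrays on which the member was well above background, and is a description of 3 or 4 points. Over days 4, 6 and 8, with 14441 candidate genes, Plin1 lay nearest to Adipoq at 0.30, then Retn at 0.39 and Gpd1 at 0.62. Gpd1, glycerol-3-phosphate dehydrogenase, lay nearest to Retn at 0.25. The nearest gene to Cfd was Adipoq, at 1.05. Cyp2f2 at 0.07 and Hp at 0.11 lay nearest to Rbp4, followed by Cd36, the fatty acid transporter, at 0.51. Over all 4 arrays, with 13759 candidates, Cox8b at 0.51, Epyc at 0.52 and Dgat2 at 0.72 lay nearest to Hp. Mdn1, Hfe and Dhrs7 lay nearest to Nampt, at 0.03, 0.04 and 0.04, and Marco, Mir22hg and Lama2 nearest to Apln, at 0.09, 0.10 and 0.12. All arrays share 1 slide, and with so few points many genes can lie close.

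Haptoglobin is also made by myeloid cells, so the marker lists of such cells are given here. Of 12 leukocyte markers, 11, 8, 9 and 10 were well above background in the control and at days 4, 6 and 8, with summed levels of 2.72, 2.64, 2.48 and 2.48 times the 75th percentile. Ptprc, which encodes CD45, gave 14.8 in the control and 15.8 at day 8. Single leukocyte markers were not all steady. Of 11 measured, 1 was at least 2-fold higher at day 8 (Coro1a, 1.12 ± 0.23) and 1 lower (Lyz2, -2.58 ± 0.25). Laptm5 stayed at background in all conditions, and Tyrobp in the OSKM-CMPs. Of 7 neutrophil markers, 4, 5, 5 and 5 were well above background, with summed levels of 4.80, 7.67, 9.34 and 11.2. Ngp stayed at background throughout and Mpo in the OSKM-CMPs, while S100a8 was at least 31.4-fold higher and Ly6g differed by 2.74 ± 0.20 at day 8. Most of the rise of the sum came from Ly6g, with signals of 386 in the control and 2723 at day 8. Ly6g differed from the control by 2.09, 2.39 and 2.74 at days 4, 6 and 8. The progenitor marker Ly6a differed by nearly the same amounts, 2.04, 2.31 and 2.69, so this rise was not particular to neutrophil markers. Why the 2 genes ran alike was not tested. Elane gave 1373 and 1124 and differed by -0.37 ± 0.20. Of 6 measured neutrophil markers, 4 were at least 2-fold higher at day 8 and 1 lower, where 12.1% and 10.6% of all genes were. The part of the neutrophil markers in the Retn and Hp results was not tested. Of 8 endothelial markers, which could bear on Apln, 8, 5, 4 and 4 were well above background. Their summed levels were 2.07, 1.26, 1.32 and 1.21. At day 8, 5 of the 8 were at least 2-fold lower and 0 higher, with a median of -1.56, where 10.6% and 12.1% of all genes were. Cdh5 was at least 11.9-fold lower, while Kdr, the marker with the highest level, differed by -0.27 ± 0.11. Apln was 449 at day 4 and 1109 at day 8, and the part of endothelial markers in this was not tested either. The 7 cardiomyocyte markers had 2, 5, 5 and 4 well above background and summed levels of 11.96, 4.63, 6.71 and 4.13, with Actn2 and Pln at background throughout. Tnnt2 made up most of each sum, with signals of 4604, 1714, 2635 and 1602, and differed by -1.60 ± 0.20 at day 8. Tnni3 was at least 3.28-fold higher. Of 4 cardiomyocyte markers compared at day 8, 1 was at least 2-fold higher and 1 lower.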

How the data were processed

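Total RNA of the 4 samples, 250 ng each per the labels, was labelled with Cy3 and hybridised to SurePrint G3 Mouse GE arrays. The authors deposited, for each of 62976 spots, a background-subtracted processed intensity with its error and flags (Feature Extraction 10.7.3.1 per the file headers, 9.5.3 in the submitters' processing notes). The authors' normalized log2 values, made in GeneSpring, were deposited as a table and equal the values used here up to a constant per array. Here 3671 control spots and 87 to 106 outlier spots per array were left out, log2 signals were averaged per probe, and each array was set relative to its own 75th percentile. Probes at background on all arrays were dropped, leaving 35540, and a gene took the mean of its remaining probes. A dim value took the higher of its own signal and the lowest signal well above background (10.4 to 11.6). Of 55681 probes, 26762 were named by accession, 3819 by symbol and 639 by synonym through RefSeq GRCm38.p6, and 24461 had no match. Probe positions are on mm9, as in the files. The number of arrays limits the precision.

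The members and gene lists were chosen with earlier results of these data known. All members are named, and from each list up to 4 genes with the largest 2-fold change at day 8, up to 2 in the other direction, and all genes of a list with 5 or fewer measured, apart from genes not reported here. Pparg, Erp44, Ero1a, Cdh13, Appl1, Naprt, Hmox1, Cd163, Cd55, Dhrs3, Rdh10, Rbp2, Il6, Fst and the markers named singly were chosen after their values were seen. Alternatives were the array median as scale, quantile normalization, normexp (offset 50) with quantile normalization (limma 3.58.1, R 4.3.3), the authors' values, no bound, no filter, a filter on all 4 arrays, single probes and Pearson's r for likeness. Python 3.11.15, numpy 2.4.6 and pandas 2.3.3 were used, and the calls were tested on simulated data.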

Additional observations from a re-analysis of the deposited data

How the results depend on the processing

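No paired analysis was possible because the conditions hold single arrays, and there was no replicate to leave out. Of 64 counts of members under the alternatives, 57 lay within 1.5 times the reported count. When arrays were scaled by their median, that of all genes moved to -0.16, -0.17 and -0.30 at days 4, 6 and 8, and 1 member was counted as lower on each day, Apln at day 4 and Adipor1 at days 6 and 8, while Nampt was no longer counted as higher at day 4. Under it the share of called genes that were higher was 36.0% at day 8, against 53.2% with the 75th percentile, and 40.0% against 53.0% between days 4 and 8. With probes limited to those above background on every array, 2 members were higher at day 4, 3 at day 6, 3 at day 8 and 3 between days 4 and 8, since Adipoq, Cfd and Rbp4 are then not measured. The normexp offset of 50 shrinks differences between dim signals, so fewer calls among dim genes follow from that setting itself. Normexp with quantile normalization called 1050 genes higher and 1097 lower at day 8, against 1984 and 1746, and 852 and 784 at day 4 against 1622 and 1352. At day 6 it called 988 and 958 against 1796 and 1628, and between days 4 and 8 it called 276 and 199 against 585 and 519. Under it Cfd differed by 0.63 at day 4 and was no longer counted as higher, Adipoq at day 8 differed by 8.41 and Cfd by 9.44. Without a bound on dim values Retn differed by 1.79 at day 4 and Lep by 1.64 at day 8, and both passed 2-fold. Of 312 differences of single members, 273 moved by less than their error. Of 312 list values, 238 did not move, 73 moved and 1 reversed: without a filter on dim probes, the median of the resistin family at day 8 was -0.093, because Retnla, Retnlb and Retnlg enter it. Pearson's r named other nearest genes for 6 of 7 members. The 5 motif counts with 200 bases before the start stayed within 1.5 times. Signal over background limits Lep in the control and at days 4 and 6, and Adipoq, Cfd, Rbp4 and the first Retn probe in the control, where only bounds can be given.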
